A study of Bos taurus with 12 samples.

Results

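The miRNA names miR-1246, miR-1260a, miR-1260b, miR-1285, miR-6240 and miR-2904, which resemble pieces of structural RNAs or repeats, were followed through small RNA libraries of cow blood. Members were taken by name alone, after the species prefix, the arm, the precursor copy and any suffix were removed, and a row repeated with the same name and values was counted once. This gave 19 of the 1981 features in the table. They are 1 feature of miR-1246, 2 each of miR-1260a, miR-1260b, miR-1285 and miR-2904, and 10 of miR-6240. No value enters this rule, but the list of names was chosen by reference to earlier results of these data, in which the group differences of miR-2904 and miR-6240 were among those with the lowest p. The difference between the groups is therefore given as a description of the 6 names and is not independent evidence about them.

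The blood came from 12 Chinese Holstein dairy cows. The study classed 6 of them as heat stressed and 6 as heat resistant, from rectal temperature and milk loss combined in a principal component analysis. No treatment, age, parity or blood fraction is stated in the labels, and each library is taken here as 1 cow, although the protocol text speaks of 9 libraries. Because classification rested on the cows' own response, no group was an untreated control.

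A miRNA is cut from a hairpin precursor by Drosha and Dicer, which leaves a short product from one or both arms that Argonaute proteins carry. Several entries of miRNA databases have sequences that also occur inside abundant structural RNAs or repeats, so reads given such a name may come from broken tRNA, snRNA or rRNA, or from transcripts of repeats, and not from a hairpin. In human, the sequence of miR-1246 occurs in the U2 spliceosomal snRNA, those of miR-1260a and miR-1260b match tRNA, and miR-1285 lies in a repeat of the Alu type. The study's read filter was meant to take out rRNA, tRNA, snRNA, snoRNA and repeats before counting, so the reads described here are those that passed it. RefSeq's cattle annotation (assembly ARS-UCD2.0) names genes for 2 of the 6, MIR1246 and MIR1260B. MIR1260B overlaps the protein coding gene MAML2, a Notch co-activator, and MIR1246 overlaps no annotated gene. The other names carry the prefixes of human, mouse or pig in the table, except miR-2904, which has the cattle prefix.

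The 6 names were a small part of the libraries. Together the 6 names held 0.187% of all counts, and miR-1246 alone held 82.3% of that part, followed by miR-6240 with 7.53% and miR-1285 with 6.50%. Rows of identical values entered these sums once, while the total of all counts took every row. With every row counted, the shares of miR-6240 and miR-1260b would be higher and that of miR-1246 within the part lower. Of the 19 features, 13 passed the filter on low counts and were tested among 756 features, and these 13 hold 11 different sets of values. Features of miR-6240 repeat each other. The feature mmu-mir-6240-p5_1ss10TG and its 3′ partner carry the same value in all 12 libraries (called the first form below), as do mmu-mir-6240-p5_1ss19GT and its 3′ partner (the second form). Of the values above 0 in the 6 rows paired in this way, 63.6% were whole numbers and 100% were whole after doubling. Equal sharing of reads between 2 rows gives such values, and the 2 arms of such a pair cannot be told apart. The 6 features below the filter were 5 of miR-6240 and the cattle-named miR-1260b, and none of them exceeded 44.5 counts in a library.

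Levels are given as CPM, counts scaled to a common library total after TMM adjustment, which balances the bulk of features between libraries. miR-1246 (bta-miR-1246_R+1) ranged over 555, 1079 and 1485 CPM in heat stressed cows and 958, 1526 and 4146 CPM in heat resistant cows (lowest, median and highest of 6 libraries). Heat resistant libraries 2 and 6 stood above all others at 3438 and 4146 CPM, while heat resistant libraries 3, 4 and 5 lay within the heat stressed range, so the groups overlapped. The mean was 1036 ± 354 CPM in heat stressed cows, against 2128 ± 1334 CPM in heat resistant cows (SD, n = 6 each), a log2 fold change, heat stressed over heat resistant here and throughout, of -1.04 ± 0.36 (SE). In edgeR's quasi-likelihood test its p was 0.0109 and its adjusted p, by the Benjamini-Hochberg method over all 756 features, 0.129. In bulk blood RNA, fewer cells of a type and less RNA per cell cannot be told apart.

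Next are miR-1260a and miR-1260b, which match tRNA in human. The R+1 form of miR-1260a, named after its suffix in the table, ranged over 3.22, 4.26 and 7.66 CPM in heat stressed cows and 6.77, 9.44 and 14.1 CPM in heat resistant cows. Heat stressed library 3 was the only one of its group above the lowest heat resistant library. Its log2 fold change was -0.99 ± 0.26 (SE; edgeR adjusted p = 0.0721). The R+2 form ranged over 1.94, 2.34 and 4.20 CPM in heat stressed cows and 4.15, 5.63 and 9.59 CPM in heat resistant cows. Here too only heat stressed library 3 reached into the heat resistant range, and the log2 fold change was -1.16 ± 0.30 (SE; edgeR adjusted p = 0.0692). The human-named miR-1260b ranged over 10.7, 19.8 and 22.4 CPM in heat stressed cows and 21.0, 27.4 and 44.1 CPM in heat resistant cows. Heat stressed libraries 5 and 6 were its lowest, and heat stressed libraries 3 and 4 overlapped with heat resistant library 4. The log2 fold change of miR-1260b was -0.72 ± 0.23 (SE; edgeR adjusted p = 0.0989).

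The repeat-like name miR-1285 had arms that behaved unlike each other. Its 5′ product (ssc-mir-1285-p5) ranged over 2.25, 5.21 and 8.40 CPM in heat stressed cows and 8.87, 18.97 and 49.1 CPM in heat resistant cows. It was the 1 member whose groups did not overlap, which was true of 3 of all 756 features in this direction (0.397%) and of 7 in either direction (0.926%). The highest library was heat resistant library 1, at 49.1 CPM against 23.5 CPM in the next, and the lowest were heat stressed libraries 4, 5 and 6. Its mean was 5.12 ± 2.76 CPM in heat stressed cows, against 22.1 ± 14.4 CPM in heat resistant cows (SD, n = 6 each). The log2 fold change was -2.09 ± 0.44 (SE). Its edgeR p, 0.000231, was the smallest of all 756 features, and its adjusted p of 0.0674 missed 0.05. The 3′ product (ssc-mir-1285-p3) ranged over 56.8, 103 and 162 CPM in heat stressed cows and 68.8, 105 and 159 CPM in heat resistant cows, with nearly complete overlap. Its log2 fold change was 0.0045 ± 0.24 (SE; edgeR adjusted p = 0.997), and its sign depended on the scaling, since it was -0.03 with RLE size factors. The ratio of the 3′ to the 5′ product was 7.79, 22.5 and 71.9 in heat stressed cows and 1.80, 4.95 and 17.9 in heat resistant cows (lowest, median and highest).

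The first form of miR-6240 ranged over 40.8, 52.3 and 65.1 CPM in heat stressed cows and 50.8, 115 and 152 CPM in heat resistant cows. Heat resistant libraries 1, 2, 3 and 6 lay far above every heat stressed library, while heat resistant library 5 was inside the heat stressed range. Its mean was 52.8 ± 8.51 CPM in heat stressed cows, against 103 ± 37.7 CPM in heat resistant cows (SD, n = 6 each), with a log2 fold change of -0.97 ± 0.24 (SE; edgeR adjusted p = 0.0686). The second form ranged over 27.8, 37.7 and 54.9 CPM in heat stressed cows and 31.6, 70.1 and 85.5 CPM in heat resistant cows, and again heat resistant library 5 was the lowest of its group. Its log2 fold change was -0.73 ± 0.23 (SE; edgeR adjusted p = 0.0989). The form with no suffix, mmu-mir-6240-p5, ranged over 4.08, 7.37 and 12.3 CPM in heat stressed cows and 4.18, 13.6 and 20.9 CPM in heat resistant cows. Its log2 fold change was -0.87 ± 0.34 (SE; edgeR adjusted p = 0.175), and heat resistant library 5 and heat stressed library 2 were its lowest libraries.

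Both products of miR-2904, a name with the cattle prefix, had their highest values in heat resistant libraries 1, 2 and 3. The 5′ product (bta-mir-2904-2-p5) ranged over 5.12, 11.03 and 19.96 CPM in heat stressed cows and 12.6, 22.99 and 50.7 CPM in heat resistant cows. Heat stressed libraries 1, 2 and 5 overlapped with heat resistant libraries 4, 5 and 6, and the log2 fold change was -1.18 ± 0.38 (SE; edgeR adjusted p = 0.107). The 3′ product ranged over 9.23, 10.7 and 18.8 CPM in heat stressed cows and 12.1, 19.1 and 49.2 CPM in heat resistant cows. Its log2 fold change was -0.85 ± 0.33 (SE; edgeR adjusted p = 0.177). The 2 products of miR-2904 had a 5′ to 3′ ratio of 0.526, 0.735 and 2.13 in heat stressed cows and 0.88, 1.11 and 1.34 in heat resistant cows.

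**Figure D1:**
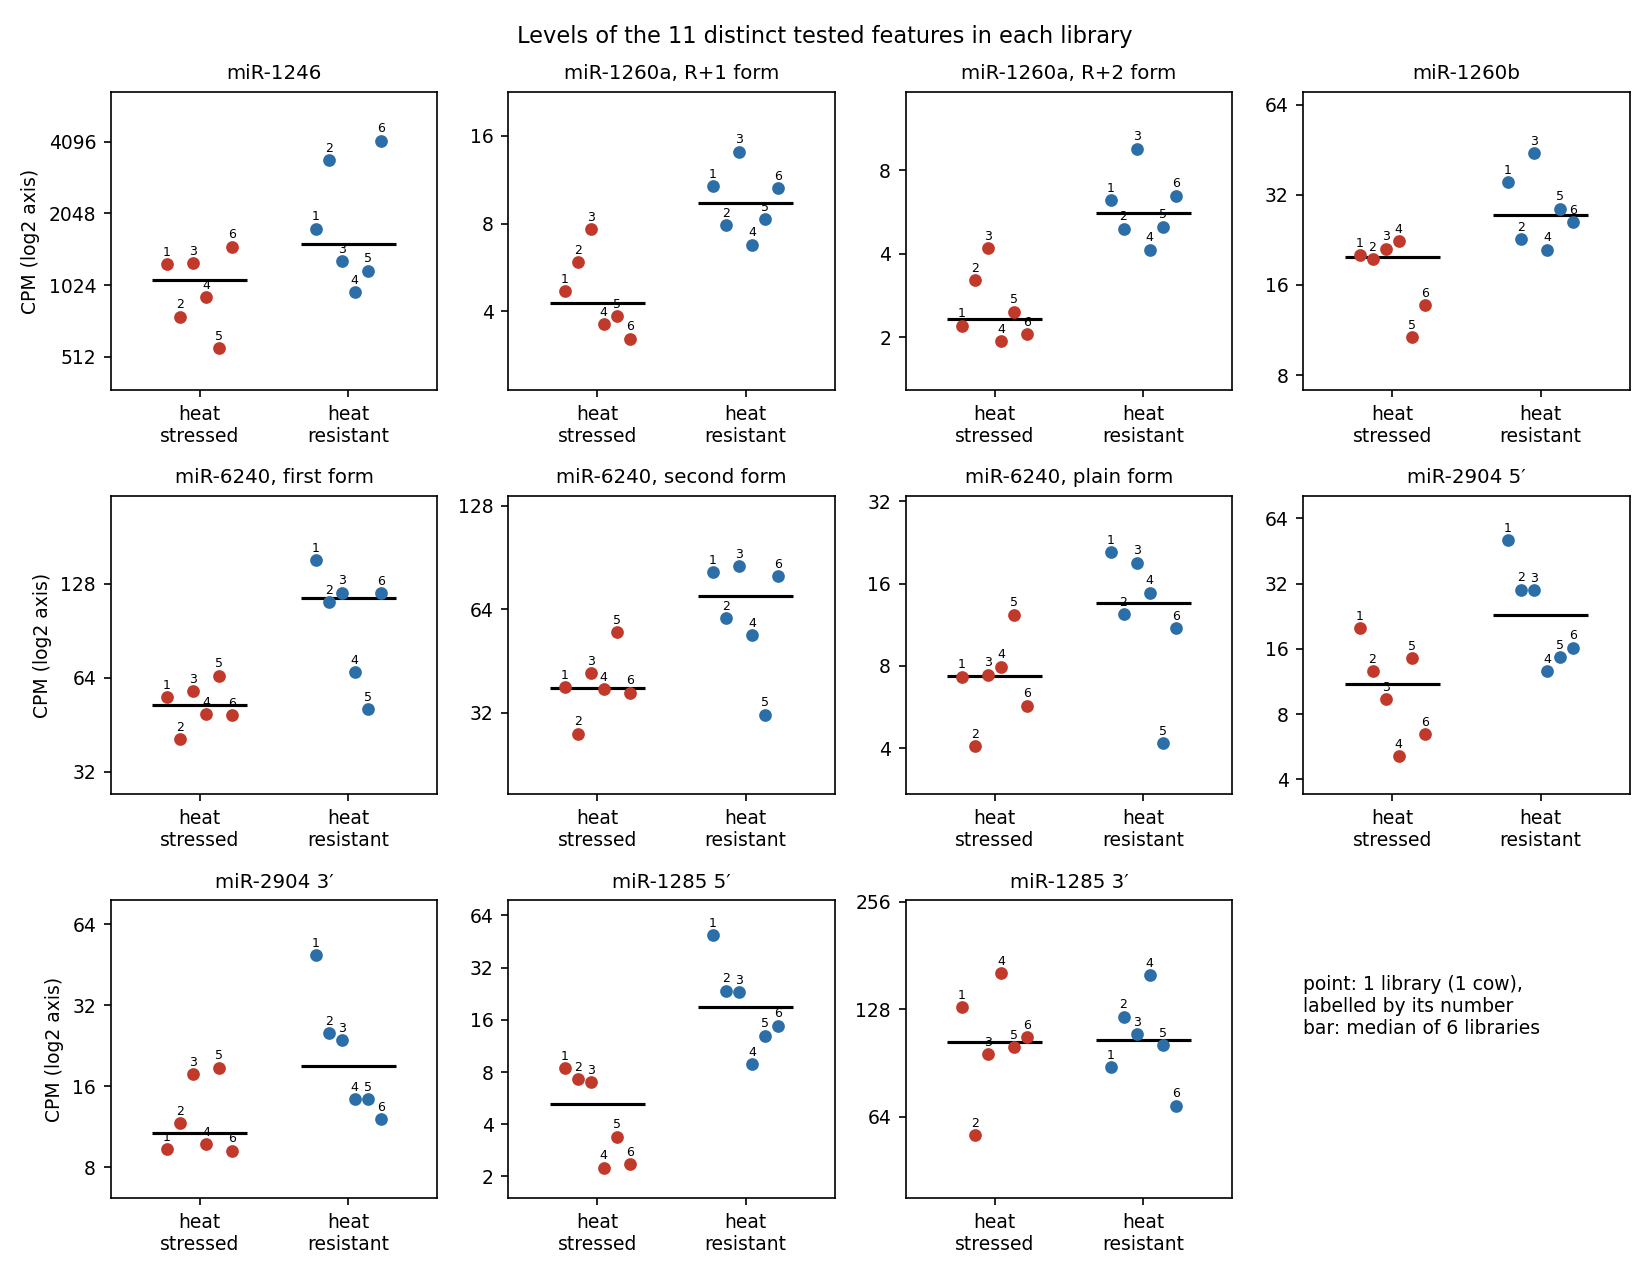
Level of each of the 11 distinct tested features in each library, in CPM on log2 axes that differ between panels, with heat stressed libraries in red on the left and heat resistant libraries in blue on the right (n = 6 each), each point numbered by its library and a bar at the group median. Only miR-1285 5′ has groups that do not overlap (at most 8.40 CPM in heat stressed and at least 8.87 CPM in heat resistant cows), and heat resistant library 1 is the highest in 5 of the panels.

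Most members had lower fitted values in heat stressed cows, and no such difference passed the adjusted threshold. None of the 13 tested members passed an adjusted p of 0.05 in edgeR, where 0 of all 756 features (0.0%) did. At an unadjusted p under 0.05, 12 of the 13, holding 10 of the 11 sets of values, had lower values in heat stressed cows, while 77 of the 756 features (10.2%) did so. Fitted values below 0 made up 50.3% of all features, and no member was higher at that p, where 9.13% of all features were. DESeq2 called 10 members, all with lower values (3.17% of the features it tested were called in that direction), and limma-voom called 0. The median log2 fold change of the 13 was -0.97, beside -0.0019 over the 756 features. The 6 members below the filter have no fitted value in this fit and are not in the counts so far. The count of members called was 10 without heat resistant library 4 (4.42% of all features tested then were called with lower values), 3 without heat stressed library 2 (1.3%), 2 without heat resistant library 5 (0.257%) and 0 when any other single library was left out. It was 2 with no filter on low counts (0.253%) and 3 with repeat rows summed (0.515%). Some of these counts hold the same values more than once. The 2 with no filter, and the 2 without heat resistant library 5, were both rows of the first form of miR-6240. Both rows of that form are also among the 3 with repeat rows summed. Each count of 10 holds both rows of the first and of the second form. With no filter all 19 members were tested, and the 6 otherwise left out had log2 fold changes from -3.99 to 0.57. With each name summed to 1 row, 5 of the 6 names had lower values at an unadjusted p under 0.05, where 10.9% of all features did.

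**Figure D2:**
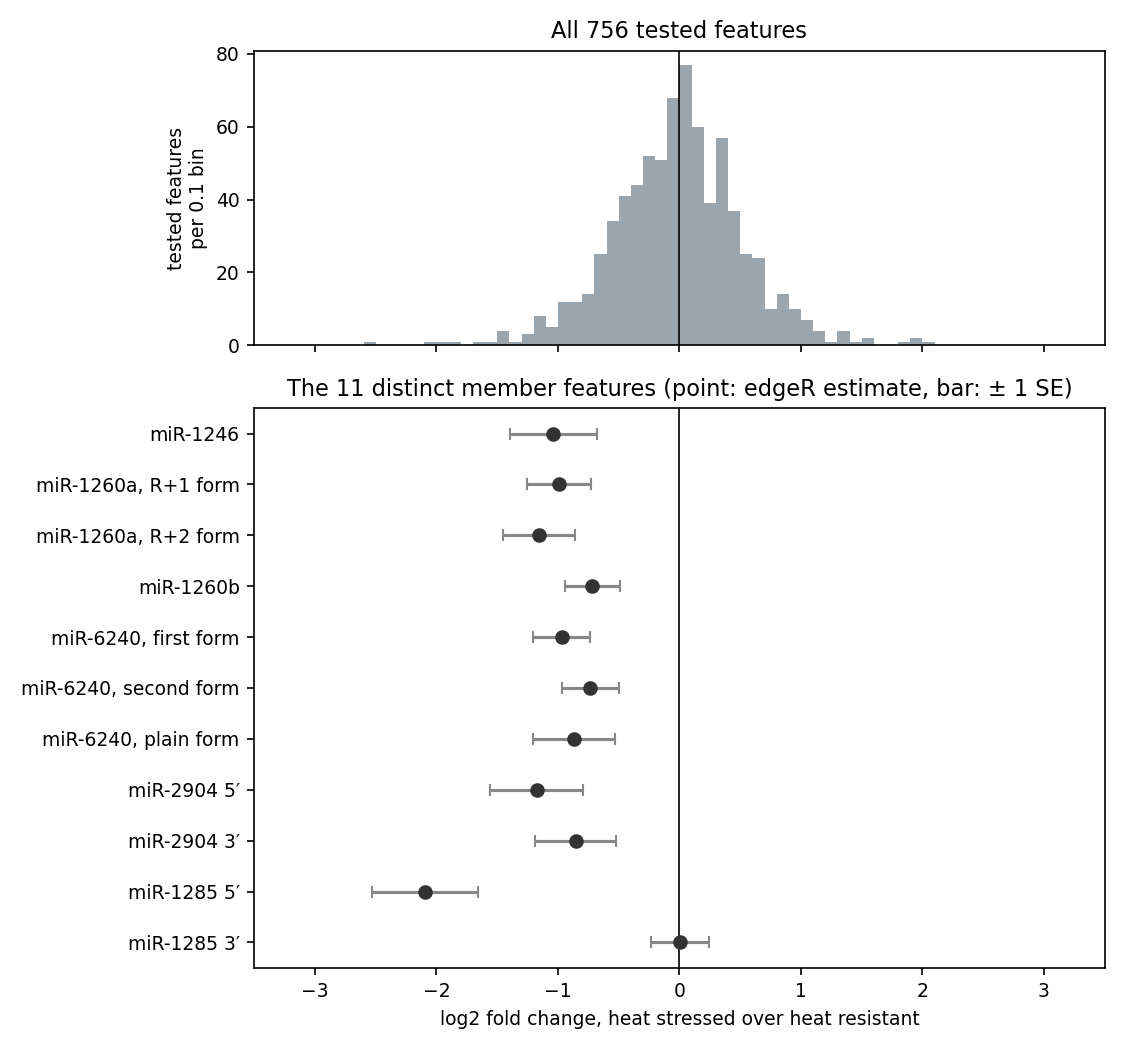
Top, log2 fold changes of all 756 tested features, heat stressed over heat resistant, as a histogram with bins of 0.1. Bottom, the edgeR estimates of the 11 distinct member features with bars of 1 SE on the same axis, of which 10 lie between -0.72 and -2.09 and miR-1285 3′ lies at 0.0045.

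The question put to these names was whether they move together. Counts were summed per name, with rows of identical values entered once. The log2 CPM (prior count 2) of the 6 names were correlated over the 12 libraries, which gave 15 pairs with a median Pearson r of 0.50. Of the 15, 14 were above 0 and 3 had an adjusted p under 0.05 (permutation test over the 12 libraries, 100000 resamples, 2-sided, Benjamini-Hochberg over the 15). This test takes no account of the groups, and a difference between the groups that 2 names share gives an r above 0 by itself. As the names were proposed with group differences known, its p-values partly restate that choice and support nothing. The 3 pairs were miR-1260a with miR-1260b (r = 0.84, adjusted p = 0.00645, Spearman rho 0.85 with adjusted p = 0.0158), miR-6240 with miR-2904 (r = 0.78, adjusted p = 0.0132, rho 0.69 with adjusted p = 0.133) and miR-1260a with miR-2904 (r = 0.70, adjusted p = 0.0440, rho 0.61 with adjusted p = 0.143). Without the 2 libraries farthest from the median of the first name, r was 0.71, 0.58 and 0.59 in the same order of pairs. With any single library left out, the r of miR-1260a with miR-1260b lay between 0.77 and 0.92. The tested rows of both names carry suffixes (1ss9TG and 1ss9AG) that read as a change to G at position 9. Their sequences were not compared, and whether the 2 names share reads was not tested. This r may therefore not be one between 2 separate RNAs.

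Correlations were lower once the groups were set apart. Within groups, exact permutation tests of the pairings passed the adjusted 0.05 for 0 of 15 pairs in heat stressed and 0 of 15 in heat resistant cows (n = 6 each, where the smallest p that a test of this size can give is 0.00278). Within heat stressed cows 8 pairs were above 0, with a median r of 0.03, and within heat resistant cows 10 were above 0, with a median r of 0.31. With every value centred on its group mean, the median over the 15 pairs was 0.08. Permuting libraries only within their group, 0 of the 15 pairs passed (lowest adjusted p = 0.431 by permutation) and 1 had an unadjusted p under 0.05. miR-1260a with miR-1260b had r = 0.42 in heat stressed, 0.90 in heat resistant cows and 0.63 after centring. miR-6240 with miR-2904 had r = 0.49 in heat stressed, 0.68 in heat resistant cows and 0.63 after centring.

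Summing hid the split inside miR-1285, whose 3′ product held most of the name's reads. Over the 11 distinct features, the 55 pairs had a median r of 0.63. Permuting libraries only within their group, with values centred, 4 of the 55 passed an adjusted p of 0.05, of which 3 were among the 6 pairs of one name and 1 among the 49 pairs of different names. The 10 pairs with miR-1285 3′ had r from -0.31 to 0.25 over the 12 libraries. The other 45 pairs had a median r of 0.66, and 75.6% of them reached 0.5, beside a median of 0.01 and 10.2% over the 285390 pairs of all tested features. These pairs share their libraries and the same scaling, and the members had been proposed with their group difference known, so the comparison describes them and tests nothing. Centred on group means, the 45 pairs had a median of 0.40, against 0.01 over all pairs of tested features. miR-1285 3′ was set apart after its low r was seen, which by itself raises the median of the rest. Of the 45, the 40 pairs of different names had a median of 0.64, and of 0.37 after centring. Here and below, pairs of different names include those of miR-1260a with miR-1260b.

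The closest pairs were forms of one name. The R+1 and R+2 forms of miR-1260a had r = 0.98 (0.95 after centring), and the first and second forms of miR-6240 had r = 0.95 (0.92 after centring), each with an adjusted p of 0.0022 by permutation within groups. Whether forms of one name, or the rows of miR-1260a and miR-1260b, share reads was not tested. Among different names, the highest was miR-2904 5′ with miR-1285 5′, at r = 0.91 and rho = 0.90. It was 0.83 without the 2 libraries farthest from the median of miR-2904 5′, 0.75 within heat stressed cows, 0.98 within heat resistant cows and 0.87 after centring. It was the 1 pair of different names that passed with libraries permuted within groups (adjusted p over the 55 pairs 0.0180, and 0.0117 on ranks within groups). The ratio of miR-2904 5′ to miR-1285 5′ was 1.34, 2.33 and 4.27 in heat stressed cows, against 1.03, 1.20 and 1.42 in heat resistant cows (lowest, median and highest). miR-1285 5′ also went with the R+1 form of miR-1260a, at r = 0.89 and rho = 0.89, with 0.81 within heat stressed, 0.55 within heat resistant cows and 0.69 after centring, which did not pass (adjusted p = 0.161 by permutation within groups).

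**Figure D3:**
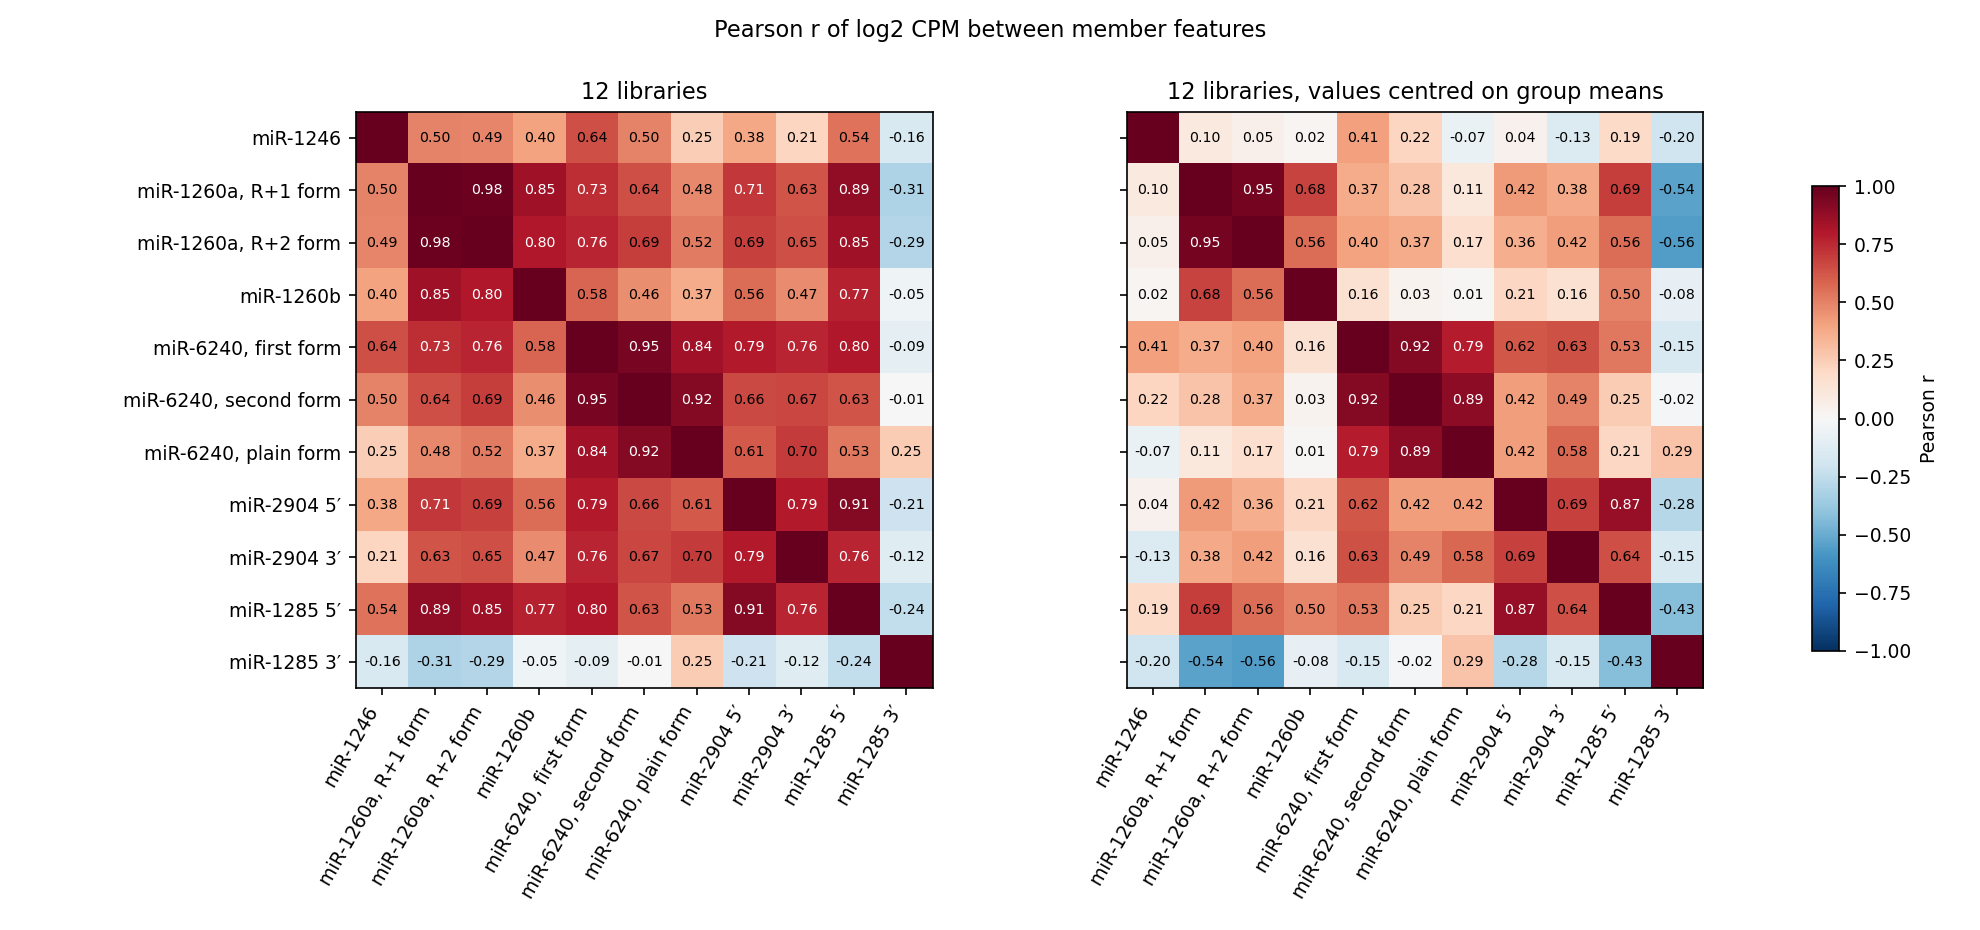
Pearson r of log2 CPM between the 11 distinct tested features over 12 libraries, as measured (left) and after each value was centred on its group mean (right), on 1 colour scale. The block without miR-1285 3′ has a median of 0.66 on the left and 0.40 on the right, and the row of miR-1285 3′ runs from -0.31 to 0.25 on the left.

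miR-1246, whose sequence occurs in human U2 snRNA, had lower correlations with the rest. Its r was -0.16 with miR-1285 3′, and with the remaining 9 features it had a median of 0.49 (from 0.21 to 0.64) over the 12 libraries. After centring that median was 0.05, and it was -0.14 within heat stressed and 0.13 within heat resistant cows. Its highest libraries, heat resistant 6 and 2, were not the highest for any other distinct tested feature. Heat resistant library 2 came next after heat resistant library 1 for miR-2904 5′ (30.0 CPM), miR-2904 3′ (25.3 CPM) and miR-1285 5′ (23.5 CPM). Heat resistant library 6 came next after heat resistant library 3 for the R+2 form of miR-1260a, at 6.49 CPM. Among the 31 pairs of different names that involve neither miR-1246 nor miR-1285 3′, the median r was 0.69 over the 12 libraries, 0.42 after centring, 0.15 within heat stressed and 0.57 within heat resistant cows. Both features were set apart after their low r was seen, so the higher median of the rest partly restates that choice.

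**Figure D4:**
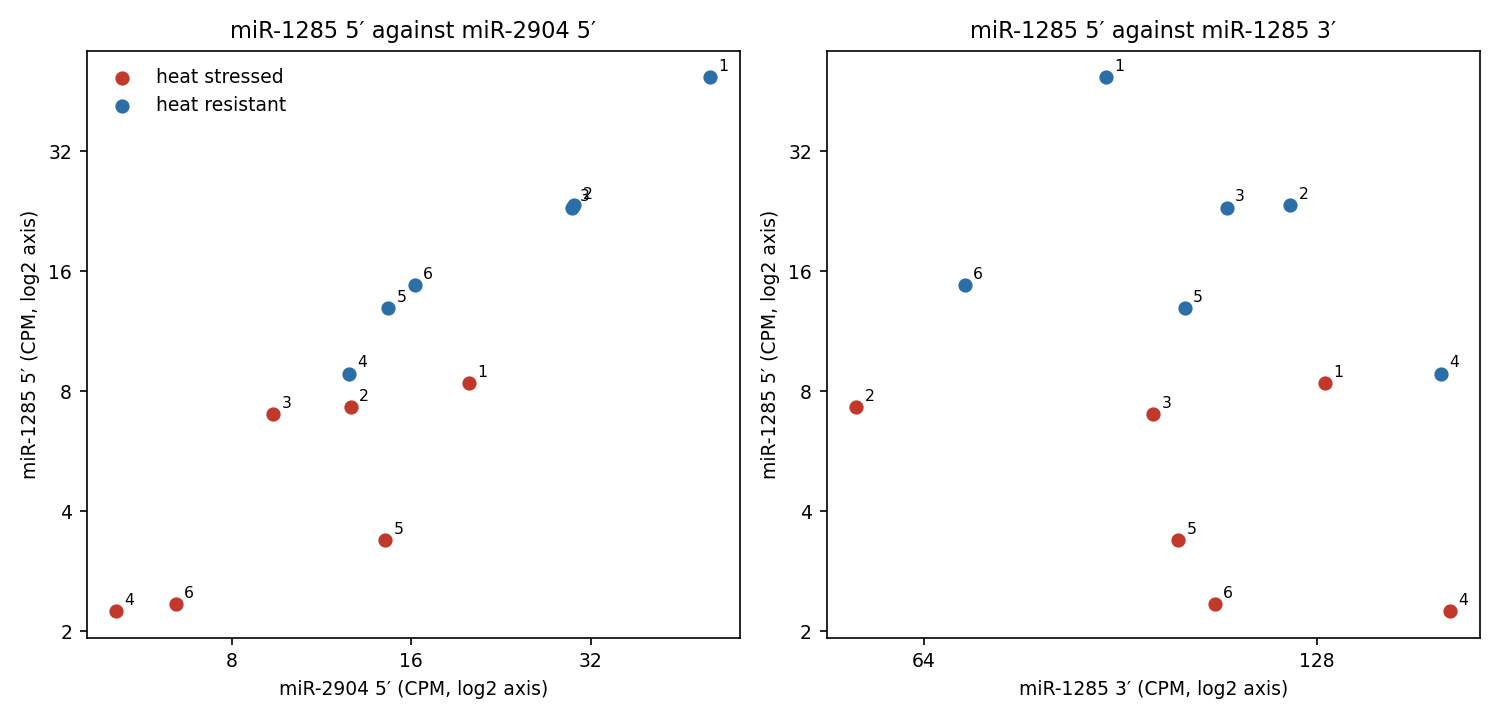
Left, miR-1285 5′ against miR-2904 5′, and right, miR-1285 5′ against miR-1285 3′, in CPM on log2 axes, with 1 point per library (heat stressed red, heat resistant blue, n = 6 each) and its library number. The left panel shows the joint order of both 5′ products (r = 0.91), led by heat resistant library 1, and the right panel shows no such order between the arms of miR-1285 (r = -0.24).

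Several members varied widely between cows. The highest library was 21.8 times the lowest for miR-1285 5′, 9.91 times for miR-2904 5′, 7.47 times for miR-1246 and 2.84 times for miR-1285 3′. The median was 2.88 times over the tested features that were above 0 in every library, as the ratio has no value for others. These ratios span both groups, so they include the difference between the groups. The coefficient of variation of miR-1246 was 34.2% in heat stressed, against 62.7% in heat resistant cows, beside medians over all tested features of 28.1% in heat stressed, against 31.7% in heat resistant cows. The first form of miR-6240 went the same way, with 16.1% in heat stressed, against 36.4% in heat resistant cows, and the R+1 form of miR-1260a did not, with 34.9% in heat stressed, against 27.2% in heat resistant cows. These spreads were not tested.

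Other properties of the libraries moved as well. Liver miRNAs (miR-122 and miR-885, 7 features, all detected) held 0.881% to 3.91% of counts in heat stressed libraries, against 12.7% and 14.5% in heat resistant libraries 1 and 2 and 1.73% to 2.20% in the other heat resistant libraries. Without heat resistant libraries 1 and 2, 9 of the 13 members had lower values at an unadjusted p under 0.05 (6.48% of all features tested then), and the log2 fold change was -1.55 for miR-1285 5′ and -1.24 for the R+2 form of miR-1260a. That of miR-2904 5′ was then -0.71 and that of miR-2904 3′ -0.35, which are more than 1.5 times smaller than with all libraries. Lymphocyte miRNAs (miR-150 and miR-342, 8 features) made up 0.512% to 1.11% of counts in heat stressed and 0.361% to 0.519% in heat resistant cows, and red cell miRNAs (miR-451, miR-144 and miR-486, 9 features) 2.38% to 7.40% in heat stressed and 1.73% to 8.91% in heat resistant cows. Myeloid miRNAs (miR-223 and miR-142) took 2.79% to 4.36% in heat stressed and 1.70% to 3.56% in heat resistant cows, and platelet miRNAs (miR-126 and miR-223) 1.03% to 1.75% in heat stressed and 1.02% to 1.52% in heat resistant cows. Muscle miRNAs (miR-1, miR-133 and miR-206) took at most 0.0738% in heat stressed and 0.0692% in heat resistant cows. The part of cell makeup in the values of the 6 names was not tested.

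The 6 names were set against 5 measures of each library, namely the total count, the number of features above 0, the share of predicted candidates, the red cell share and the liver share. None of the 30 relations passed an adjusted p of 0.05, by Pearson (lowest adjusted p = 0.376) or by Spearman (0.420), in permutation tests over 12 libraries. The 2 with an unadjusted Pearson p under 0.05 were miR-2904 with the liver share (r = 0.72, p = 0.0167, rho = 0.48) and miR-1260b with the share of predicted candidates (r = -0.59, p = 0.0406, rho = -0.36). Without the 2 libraries farthest from the median of the measure, the first of these was 0.06 and the second -0.63. By Spearman, relations to the red cell share had an unadjusted permutation p under 0.05 for miR-1246 and miR-2904. They were rho = -0.69 (p = 0.0159, r = -0.54) for miR-1246 and rho = -0.60 (p = 0.0431, r = -0.51) for miR-2904. Total counts ran from 4395454 to 10601301 per library. Over all 12 libraries, r with the total count lay between -0.32 and -0.05 for the 6 names. That range hides opposite signs once each group is taken singly (n = 6 each). For miR-1260a, r with the total count reached 0.93 among heat stressed cows but -0.77 among heat resistant cows. For miR-1260b, the matching values were 0.60 and -0.72. The other names stayed between -0.31 and 0.34 in either group. Relations inside a single group were not tested. Depth limits the lowest members most, as the R+2 form of miR-1260a never exceeded 50 counts in a library.

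Other names doubted as pieces of tRNA, rRNA, snRNA, snoRNA or mitochondrial RNA were compared. Of 35 such features, 18 were tested, with lower fitted values in heat stressed cows for 15 and higher for 3, a median log2 fold change of -0.22 and 3 at an unadjusted p under 0.05, all lower, where 10.2% of all features were lower at that p. Of the 18, 6 are copies of miR-6236 with the same values, which leaves 13 distinct sets of values, 10 lower and 3 higher. The most abundant, miR-1839, averaged 790 ± 94.1 CPM in heat stressed cows, against 802 ± 110 CPM in heat resistant cows (SD, n = 6 each), and miR-3535 averaged 149 ± 52.8 CPM in heat stressed, against 267 ± 152 CPM in heat resistant cows, a log2 fold change of -0.85 ± 0.33 (SE; edgeR adjusted p = 0.176). miRNAs that reach Dicer without Drosha, so that their making differs from that of most miRNAs, showed 5 lower and 10 higher of 15 tested (5 and 8 of 13 distinct sets of values), with a median of 0.15 and 0 at an unadjusted p under 0.05. miR-320a of that list averaged 16766 ± 1245 CPM in heat stressed cows, against 17729 ± 1388 CPM in heat resistant cows, and miR-484 had a log2 fold change of 0.22 ± 0.18 (SE; edgeR adjusted p = 0.503). Abundant and stable miRNAs showed 7 lower and 4 higher of 11 (median -0.05), 1 of them lower at an unadjusted p under 0.05, with miR-423-5p at 0.12 ± 0.11 and miR-191 at 0.02 ± 0.10 (log2 fold change ± SE; edgeR adjusted p = 0.547 and 0.957). No feature of these 3 lists passed the adjusted 0.05 in edgeR.

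The features outside the 6 names were ranked by how alike their profile over the 12 libraries was to that of each name. By Pearson r of log2 CPM, miR-1246 was closest to miR-188 (0.84), miR-29b-5p (0.75) and the predicted candidate PC-3p-1364_5207 (0.74). miR-1260a was closest to miR-330-5p (0.90), miR-212-3p (0.85) and miR-29d-5p (0.84), and miR-1260b to miR-212-3p (0.88), miR-204 (0.87) and miR-132 (0.79). miR-212 and miR-132 come from 1 precursor cluster that responds to CREB signalling. miR-1285 was closest to miR-1386 (0.78), PC-5p-10780_342 (0.77) and a variant of miR-100 (0.74). miR-6240 was closest to miR-1307 (0.95), PC-5p-14057_278 (0.92) and PC-3p-1364_5207 (0.87), and miR-2904 to miR-543 (0.87), miR-409-3p (0.85) and the 5′ product of miR-2887-1 (0.84). Each is the top of a ranking over all tested features outside the 6 names, so its size is a description with no test. miR-1307, the closest of all, averaged 1529 ± 138 CPM in heat stressed cows, against 1958 ± 309 CPM in heat resistant cows (SD, n = 6 each). miR-2887 is also on the list of other doubted names compared above. Its 5′ product had a log2 fold change of -1.25 ± 0.46 (SE; edgeR adjusted p = 0.162).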

How the data were processed

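Small RNA of blood was sequenced in 12 libraries. Per the labels' protocols, Trizol was used for extraction and a TruSeq kit for library making, and ACGT101-miR removed reads of rRNA, tRNA, snRNA, snoRNA and repeats. No source used here gives the aligner, the miRBase release or the build, so no coordinates are printed. The authors deposited read counts per row that need not be whole, per the file headers and values, and these expected counts were rounded for the tests only, while CPM, ratios and correlations used them unrounded. The deposited normalized columns, a signal per row, entered 1 alternative only. Sequences of the miRNAs were not analysed here. Groups follow the group label.

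The table has 2183 rows with 1981 distinct names, 202 of the rows being repeats. Tests were run in edgeR 4.0.16 under R 4.3.3 (quasi-likelihood F test, robust, TMM, filterByExpr with a minimum count of 10, Benjamini-Hochberg at 0.05, 2-sided), with limma 3.58.1 and DESeq2 1.42.0 as alternatives. The SE is the log2 fold change over the root of F. For correlations, CPM were put on the log2 scale after a prior count of 2, with 100000 permutations, or all 720 pairings within a group. Centred values were also permuted within groups. Scripts were tested on simulated data. Other alternatives changed the normalization, the filter, repeat rows, summed names, the replicate block or left out a library.

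The members and the lists were chosen with earlier results of these data known. Every tested member is named, with the 3 features most like each name and the 2 most abundant tested features of each list.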

Additional observations from a re-analysis of the deposited data

Results flagged for a closer look

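Groups of 6 libraries were searched for a library whose gap to its neighbour exceeded Dixon's 95% critical value, over 22 groups (11 distinct features in 2 groups). The search used CPM that were not put on the log2 scale, and the log2 scale was not searched. Chance flags about 1 in 20 groups only if they are separate and their values normally spread. The 22 groups share libraries, and many of the features correlate, so that rate is a rough guide. Of the 22, 2 were flagged, both for heat resistant library 1. It had 49.2 CPM of miR-2904 3′, where the next heat resistant library had 25.3 CPM and the gap was 0.645 of the range. It had 49.1 CPM of miR-1285 5′, where the next had 23.5 CPM and the gap was 0.636 of the range. The same library was one of a pair with a high share of liver miRNAs (12.7% of counts), and the part of that in the 2 values was not tested. Without it, the log2 fold change of miR-1285 5′ was -1.67 and that of miR-2904 3′ -0.48.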

How the results depend on the processing

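Over 22 alternatives, all 253 fold changes of the 12 members above the filter other than miR-1285 3′ kept their direction, and 32 of them passed the threshold. These 12 hold 10 distinct sets of values, so fold changes of the paired miR-6240 rows recur in both the 253 and the 32. The number of all features called, 0 in edgeR, was 11 with no filter on low counts, 54 with DESeq2, 13 with repeat rows summed and 0 to 94 with 1 library left out (37 without heat stressed library 2, 94 without heat resistant library 4, 2 without heat resistant library 5). The number of members called was 2, 10 and 3 under those first 3 settings and 0 to 10 with 1 library left out. Wherever a paired miR-6240 row was called, both rows of the pair, with the same values, are in the count. With each name summed to 1 row, 5 of 6 names had lower values at an unadjusted p under 0.05 (10.9% of all features), and the count of 12 members was 10 to 12 with 1 library left out. Leaving out both heat resistant libraries 1 and 2, summing rows of identical values, and permuting libraries within groups were chosen after seeing the data. So was setting miR-1246 and miR-1285 3′ apart from the other features. The adjusted p of miR-1285 5′ ran from 0.000837 (DESeq2) to 0.206 (both these libraries left out). The fold change of miR-1285 3′ turned to -0.026 (RLE and DESeq2), -0.033 (repeat rows summed), -0.018 (total count only), -0.020 (limma-voom), -0.0018 (members and the 3 most abundant features left out of the totals), -0.010 (replicate block) and -0.040 (both libraries left out), and ran from -0.17 to 0.19 with 1 library left out. The median r of 0.50 was 0.082 with values centred on the group means, 0.63 with every row as its own feature, 0.41 with both libraries left out and 0.41 to 0.51 with 1 left out. The r of miR-1246 with miR-1285 turned to -0.0015 (total count only), -0.16 (centred) and -0.16 (both libraries left out), and that of miR-1246 with miR-2904 to -0.028 (centred), while miR-1285 with miR-2904 turned to -0.054 (both libraries left out). With 1 library left out, r ran from -0.26 to 0.37 for miR-1246 with miR-1285, from -0.12 to 0.15 for miR-1260a with miR-1285 and from -0.026 to 0.48 for miR-1285 with miR-6240. Without heat resistant library 6, 2 relations to library measures passed, and 0 to 2 did over all libraries left out. The cause of these changes was not tested. The titles' replicate numbers recur in both groups, and a fit with the replicate number as a block called 8 features, 2 of them members. The numbers share no stated source, same-numbered libraries deviated together with r from -0.05 to 0.28, and for 3 of the 6 numbers the best match was the library of the same number. With 6 cows a group and some members at a few CPM, smaller differences may not be detectable at this depth.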

Other observations

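The table also lists a miR-1260 with no letter under a hamster name, which the 6 names do not include. It has 6 features, of which 5 were tested, holding 2 distinct sets of values. All 5 had lower fitted values in heat stressed cows (50.3% of all features did), with a median log2 fold change of -0.56, and 1 was lower at an unadjusted p under 0.05 in edgeR (10.2% of all features were).

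The 6 members that did not pass the filter on low counts were sparse. The cattle-named miR-1260b was above 0 in 2 libraries, both heat resistant, with at most 6 counts. The 5 miR-6240 features were above 0 in 8 to 11 libraries, with at most 44.5 counts. The values of miR-1246, of both products of miR-1285 and of both products of miR-2904 were whole numbers in 100% of libraries, while 66.7% of the values of miR-1260b were whole.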
